A study of Rattus norvegicus with 256 samples.

Results

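Complement and coagulation are cascades of blood proteins, and 37 genes that encode their factors and the proteases and inhibitors around them were followed here through the organs of the rat. The probesets were taken by annotation: every probeset of the RAE230_2 array (a set of short probes that reports 1 transcript) that was annotated to 1 of the 37 symbols was taken. Of the 37, 33 had probesets of their own, 41 probesets in all, out of 14217 distinct genes and 31042 probesets on the array. C2 and Cfb were named only by 4 probesets that carry both symbols, and no probeset was annotated to F7 or F11.

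In complement, C1q bound to antibody or mannose-binding lectin bound to sugars activates serine proteases. Further down the cascade C3 is cut, and the terminal components assemble a pore in the target membrane. In coagulation, tissue factor exposed by an injury starts a chain of vitamin K dependent proteases that ends in thrombin, which turns fibrinogen into fibrin. Antithrombin, heparin cofactor II and the protein C pathway hold the chain back, and plasmin dissolves the clot. Hepatocytes are the textbook source of most of these plasma proteins, while macrophages are known to make C1q and properdin, and cells outside the vessel lining to make tissue factor.

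The study profiled untreated Han Wistar rats (strain AlpkHsdBrlHan:WIST), 5 male and 5 female animals, by arrays of 31 organs, with 2 to 5 arrays for each organ and sex. The sources used here give no age for the animals. There were 26 somatic organs taken from both sexes, with 115 male and 119 female arrays, and 22 arrays of prostate, testes, epididymis, ovary and uterus. Each array holds RNA of 1 organ of 1 animal, so replicates are animals, and their number limits the precision.

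Values are log2 signals after GCRMA, a background correction and summary of the probes, and a difference of 1 is a 2-fold change. An organ was taken to express a gene measurably when the mean of at least 1 sex passed 6.65, the level the study used. A probeset's level was compared between organs or sexes. Levels of different probesets were set against each other only to choose 1 for a gene, or the highest in each organ in 1 alternative. These are whole organs, in which fewer cells of a type and less RNA per cell cannot be told apart.

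Lists of marker genes were read on every array. All 9 hepatocyte markers were above 6.65 in the liver, where their mean was 13.97 to 14.21 across arrays, and the kidney, thymus and pancreas arrays likewise carried their tubule, T cell and acinar markers. However, 4 arrays of other organs carried hepatocyte markers far above the median array of their organ. Their mean was 6.85 higher on adipose male 5, 4.96 on adipose female 2, 3.23 on lung female 3 and 2.00 on jejunum male 5, and the next highest excess was 1.27. In addition, 4 arrays went against their labelled sex by Eif2s3y, below 6.65 in a male or above it in a female. Eif2s3y and mean Xist read 3.65 and 8.77 on aorta male 3 and 3.04 and 8.55 on heart male 5. They read 6.04 and 7.10 on bone marrow male 5 and 8.43 and 6.82 on bone marrow female 2, so both transcripts gave signal there. The 4 arrays were set apart by Eif2s3y alone. Without these 4 the counts of 31 member probesets higher in the liver, 3 lower and 25 above every other organ, the groups of 11, 16 and 6 genes by leading organ, the 120 calls in other organs and the count of 6 that differed by sex were the same. Lymphocyte markers were uneven too. The mean of 5 T cell markers reached 9.10 in the aorta (median array 3.79), 8.90 in the pancreas (4.17) and 8.85 in the thyroid (3.91), and that of 2 B cell markers 9.62 in the aorta (2.13) and 7.97 in the pancreas (2.31). In the lymph nodes 3 of 4 adipocyte markers, Adipoq, Cidec and Plin1, were above 6.65, and the list lay at 5.39 to 10.93 in the mesenteric node (median 9.53) and 4.48 to 8.50 in the mandibular node (median 5.76), against 2.36 to 3.23 in the spleen and 12.09 to 13.08 in adipose.

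Of the 41 member probesets, 31 were higher in the liver than in the mean of the other 30 organs, with 8.14% of all probesets on the array passing the same limits (limma, adjusted p of 0.05, at least 2-fold, and measurable). The lower ones were 3, the probeset of F3 and both probesets of F13a1, against 13.9% of all probesets. The median difference was 8.57 on the log2 scale over the member probesets and -0.04 over the array. Against each of the other organs in turn, 25 member probesets were higher in the liver than in every one, where 1.32% of all probesets were. These counts were the same without the 4 arrays that carried hepatocyte markers.

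With the probeset of highest mean taken for each gene, the 33 genes fell into 3 groups by their organ means. There were 11 genes measurable in the liver and in no other organ. A further 16 were highest in the liver and measurable elsewhere too. In the remaining 6 genes, C1qa, C1qb, C1qc, Cfp, F3 and F13a1, another organ was highest. With a limit 1 log2 unit lower, Mbl1, F10 and Plg left the liver-only group, which then held 8 genes.

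**Figure D1:**
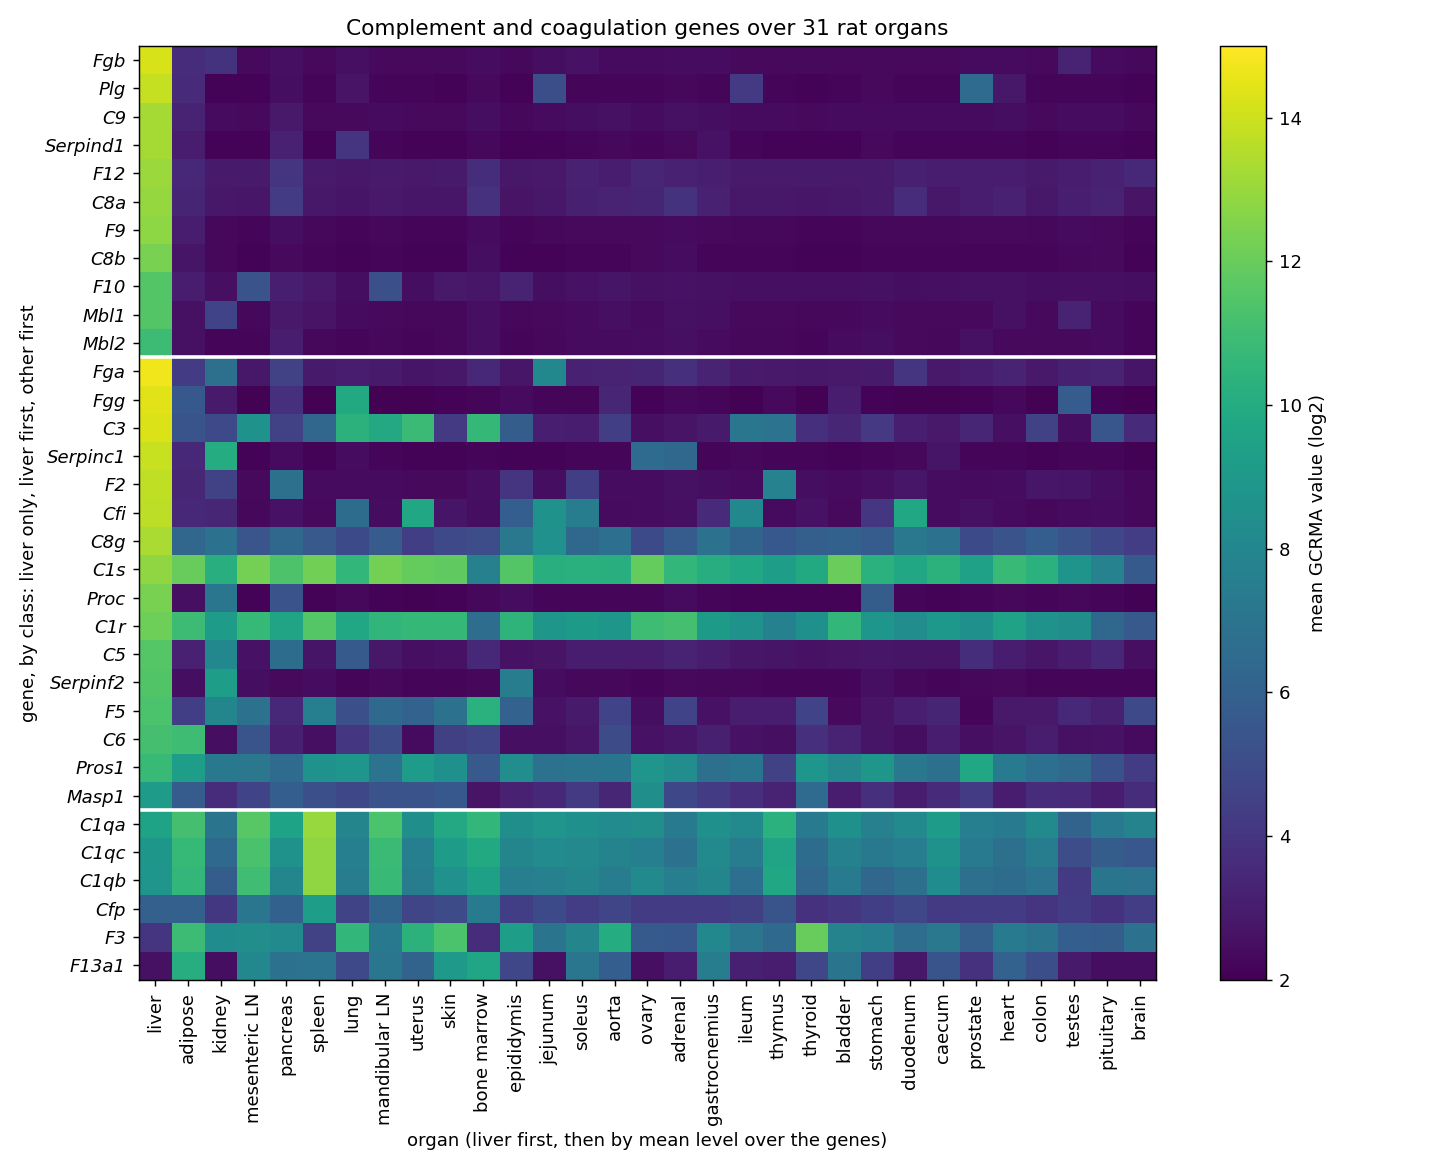
Mean log2 signal of the 33 genes (rows, grouped as liver only, liver first and other first) in 31 organs (columns), shown as colour. The liver column is bright for 27 genes that are highest there, and C1qa, C1qb, C1qc, Cfp, F3 and F13a1 peak elsewhere.

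**Figure D2:**
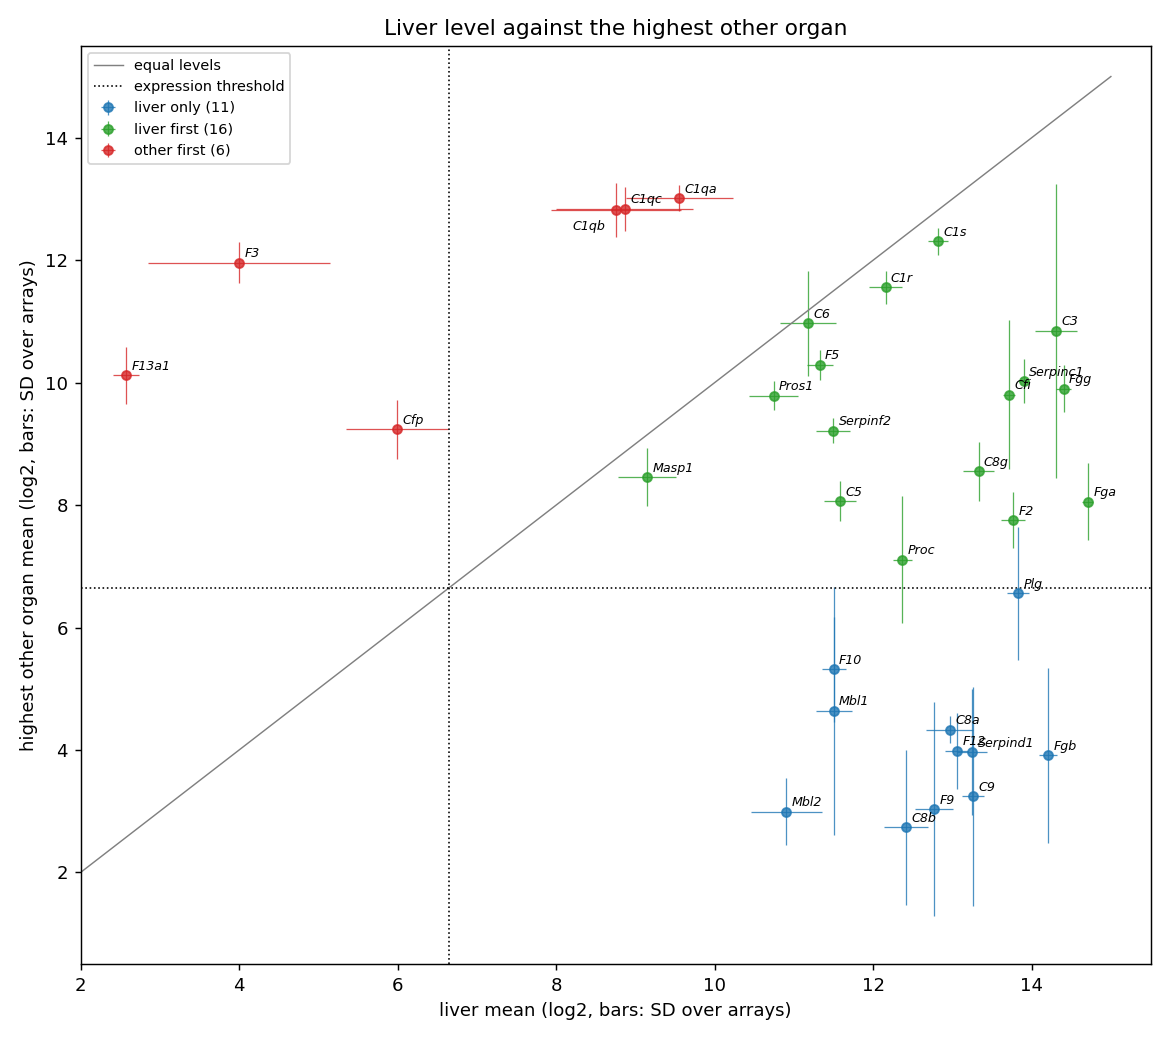
For each gene, the mean log2 signal in the liver (horizontal axis) against that in its highest other organ (vertical axis), with bars for the SD over arrays and dotted lines at 6.65. The 11 liver-only genes lie right of the vertical line and below the horizontal line, between 2.73 and 6.56 on the vertical axis.

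The adjacent fibrinogen genes on chromosome 2 illustrate how neighbours differed: Fga (1370992_a_at) was also measured in the jejunum and kidney, Fgg in the lung, and Fgb in the liver alone. C8a and C8b, neighbours on chromosome 5, were both measured in the liver alone. No other protein-coding gene lies between Fgg and Fga, Fga and Fgb, or C8b and C8a. The 250 bases before each start are shown because these 5 genes carry the contrast between liver-only and locally measured transcripts. They are from RefSeq (build GRCr8), 5′ to 3′ on the strand of the gene, with matches to the motifs searched in capitals.
Fgg (chr2:170652833-170653082, plus strand): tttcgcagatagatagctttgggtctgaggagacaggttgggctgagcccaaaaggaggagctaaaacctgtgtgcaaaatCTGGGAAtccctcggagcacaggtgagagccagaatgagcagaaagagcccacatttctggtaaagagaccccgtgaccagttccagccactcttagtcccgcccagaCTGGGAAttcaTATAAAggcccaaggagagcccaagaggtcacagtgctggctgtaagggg
Fga (chr2:170671919-170672168, plus strand): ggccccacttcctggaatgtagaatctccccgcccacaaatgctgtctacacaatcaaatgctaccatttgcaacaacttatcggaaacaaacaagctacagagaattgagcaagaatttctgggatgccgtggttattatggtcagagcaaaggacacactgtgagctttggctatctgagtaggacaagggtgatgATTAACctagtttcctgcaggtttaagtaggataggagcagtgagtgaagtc
Fgb (chr2:170700876-170701125, minus strand): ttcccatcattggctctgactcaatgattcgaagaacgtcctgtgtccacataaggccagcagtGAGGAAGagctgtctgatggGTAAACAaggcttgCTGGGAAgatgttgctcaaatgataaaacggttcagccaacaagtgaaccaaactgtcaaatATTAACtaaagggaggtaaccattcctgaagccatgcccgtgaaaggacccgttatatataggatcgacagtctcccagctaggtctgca
C8a (chr5:124866632-124866881, minus strand): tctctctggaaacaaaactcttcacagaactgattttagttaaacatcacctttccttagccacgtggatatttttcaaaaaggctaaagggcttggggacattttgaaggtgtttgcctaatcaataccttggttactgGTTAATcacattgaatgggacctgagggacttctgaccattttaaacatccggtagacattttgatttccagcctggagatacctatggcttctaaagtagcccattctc
C8b (chr5:124763864-124764113, plus strand): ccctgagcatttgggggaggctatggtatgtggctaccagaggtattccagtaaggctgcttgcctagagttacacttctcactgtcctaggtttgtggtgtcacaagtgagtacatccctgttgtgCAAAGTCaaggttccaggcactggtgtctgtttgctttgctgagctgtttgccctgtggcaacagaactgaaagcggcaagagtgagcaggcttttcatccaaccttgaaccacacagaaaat

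The motifs were searched on both strands in these 250 bases. GTTAAT, letters of an HNF1 site, was found before Fga with its first base at -52, before Fgb at -90 and before C8a at -110, and 6.46% of the 27457 RefSeq promoters held it. The Fgb sequence also held TGTTTAC, letters of a FOXA site, at -166 (3.25% of promoters), CTGGGAA, letters of an interleukin response element, at -152 (9.33%) and GAGGAAG, letters of a PU.1 site, at -186 (10.1%). The Fgg sequence held CTGGGAA at -169 and -61 and TATAAA, the TATA box, at -50 (13.1%). CAAAGTC, letters of an HNF4 site, was found before C8b at -123 (3.95%). Among the 29 members with an entry in the table, GTTAAT was found before C5, C8a, F2, Fga, Fgb, Plg and Proc. TGTTTAC was found before F11, F12 and Fgb, and CAAAGTC before C8b alone. CTGGGAA was found before C1r, C3, F9, Fgb, Fgg, Plg and Serpinc1. GAGGAAG was found before F13a1, Fgb, Mbl1 and Plg, and TATAAA before Fgg alone. A match describes the letters and not a bound site. C1qc, C1s, C2, C8g, C9, Cfb, F3 and Serpind1 had no entry.

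The 3 fibrinogen chains, which assemble into the soluble precursor of fibrin, gave large liver differences. Fgb (1370511_at), the beta chain, ranged from 13.99 to 14.34 with a median of 14.21 over 9 liver arrays and had its next highest mean, 3.91, in the kidney. The liver exceeded the mean of the other organs by 11.70 (SE 0.20, limma adjusted p = 2.81e-126). A pair of further Fgb probesets, 1371234_at and 1388266_at, had no organ mean above 3.28, so the gene's call rests on 1370511_at.

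Fgg, the gamma chain, lay between 14.30 and 14.56 in the liver with a median of 14.36. In the lung it ranged from 9.21 to 10.44 with a median of 9.98, and all 10 lung arrays were above 6.65. The lung exceeded the mean of the other non-liver organs by 7.36 (SE 0.24, limma adjusted p = 5.72e-77). The liver remained 4.50 above the lung (SE 0.34). On lung female 3, the lung array with hepatocyte markers, Fgg read 9.53 and lay inside the range of the other lung arrays. In the lung as a whole 1 of 9 hepatocyte markers, Serpina1, was above 6.65.

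Fga (1370992_a_at), the alpha chain, was at 14.58 to 14.82 in the liver with a median of 14.70. In the jejunum it ranged from 7.16 to 9.42 with a median of 7.91 over 9 arrays, and in the kidney from 5.87 to 7.81 with a median of 6.78 over 10. The liver and jejunum arrays did not overlap. By 1370992_a_at both the jejunum and the kidney were called higher than the other non-liver organs for Fga. The Fga probeset 1371258_at averaged 11.76 in the liver and was called in neither. In the kidney it averaged 2.62 in males and 4.57 in females. Fgb averaged 2.47 in the jejunum and 3.91 in the kidney, its highest organ beside the liver, and Fgg averaged 2.93 in the kidney. No organ other than the liver was thus above 6.65 for more than 1 chain. Across the 30 organs other than the liver, Pearson r was 0.51 between Fga and Fgb, 0.04 between Fga and Fgg and 0.41 between Fgb and Fgg. The rank correlation (Spearman) was higher, at 0.83, 0.53 and 0.72 in the same order, so the measure chosen changes the reading. This is a description of organ means, which share animals and arrays.

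Plasminogen (Plg), the precursor of the protease that digests fibrin, was liver-only with 13.59 to 14.08 in the liver (median 13.81). The difference from the other organs was 11.23 (SE 0.21, adjusted p = 1.13e-116, limma). Its prostate arrays came closest to the limit, at 4.99 to 7.82 with a median of 6.62 and a mean of 6.56, just below 6.65. On prostate male 1 the T cell list was at 6.30, against 3.92 on the median prostate array. Over the other 4 prostate arrays the Plg mean was 6.67, just above the limit, so Plg is liver-only by a narrow margin that depends on that array.

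Among the vitamin K dependent factors, F9 and F10 were liver-only and F2, Proc and Pros1 were not. F9, which acts with F8 to activate F10, was at 12.52 to 13.15 in the liver. Outside it F9 was highest in adipose, with a median of 2.29 and a highest array of 7.66, which was adipose male 5. Adipose female 2 read 4.32 for F9, and the 8 adipose arrays without hepatocyte markers 2.25 to 2.39. F10, the protease of prothrombinase, was at 11.22 to 11.82 in the liver and averaged 5.31 in the mesenteric lymph node. F2, prothrombin, was at 13.57 to 14.02 in the liver with a median of 13.74, and the thymus followed at 7.00 to 8.39 with a median of 7.81. All 8 thymus arrays for F2 were above 6.65, and the thymus exceeded the other non-liver organs by 4.91 (SE 0.21, limma adjusted p = 8.81e-58). Pancreas was above the limit too for F2, with a mean of 6.78, and 6.75 over the 4 of 7 arrays whose lymphocyte lists were not above the median array by over 1.5. None of the 9 hepatocyte markers was above 6.65 in the thymus.

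Protein C (Proc), which once activated cuts factors V and VIII, was at 12.15 to 12.55 in the liver and 5.67 to 8.24 in the kidney, with medians of 12.38 and 7.18. The kidney was the only other organ whose Proc mean was above 6.65, and its arrays fell apart by sex. Protein S (Pros1), the cofactor of protein C, was measurable in 26 organs. It was highest in the liver at 10.30 to 11.14 with a median of 10.57, followed by prostate at 9.54, 9.78 and up to 10.09 (lowest, median and highest of 5 arrays). The ranges of Pros1 in liver and prostate did not overlap, although the difference of 0.99 (SE 0.20) was under 2-fold.

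Of the other clotting factors, F12, which starts the contact pathway, was liver-only, with 12.91 to 13.32 in the liver and its next highest mean, 3.99, in the pancreas. F5, the cofactor of F10 in prothrombinase, was at 11.04 to 11.53 in the liver (median 11.33) and at 9.99 to 10.71 in the bone marrow (median 10.25). The bone marrow arrays of F5 were all below the liver arrays and all above those of the kidney, which reached 8.69. The liver exceeded the bone marrow by 1.04 (SE 0.31, limma adjusted p = 0.0020), and the bone marrow exceeded the mean of the other non-liver organs by 6.07 (SE 0.22, adjusted p = 1.22e-67). In the bone marrow 5 of 5 megakaryocyte and platelet markers were above 6.65 and none of the 9 hepatocyte markers was. Over 31 organs the r of F5 was 0.56 with the megakaryocyte and platelet list and 0.58 with the macrophage list. Without the liver these were 0.67 and 0.58. The cells that gave the bone marrow signal were not tested. F5 was also measurable in spleen, with a mean of 7.62, and in kidney, at 7.99.

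F13a1, the subunit of the transglutaminase that cross-links fibrin, was near the bottom of the scale in the liver. Its probeset 1374779_at was at 2.40 to 2.92 there, with a median of 2.53. In adipose it ranged from 9.36 to 10.68 (median 10.20), and in bone marrow from 9.26 to 10.24 (median 9.73). The liver minus the mean of the other organs was -2.68 (SE 0.31, limma adjusted p = 7.53e-15). The mesenteric lymph node arrays of F13a1 were the most spread, from 2.98 to 9.88, and the lowest, male 5, was also the lowest in the adipocyte list, at 5.39. The next lowest for F13a1, male 1 at 6.47, was at 9.46 in that list. Female 3, next lowest in the list at 8.23, read 9.72 for F13a1. The part of adipocytes in these values was not tested. The probeset 1369724_at of F13a1 had the same leading organ, and r between the pair was 0.93 over 31 organs.

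Tissue factor (F3), the membrane receptor that starts coagulation, was measurable in 23 organs and not in the liver, where the arrays lay between 2.45 and 6.20 with a median of 3.67. It was highest in the thyroid, at 11.41 to 12.40 with a median of 11.86. For F3 the liver minus the thyroid was -8.02 (SE 0.24), and the liver minus the mean of all other organs was -3.76 (SE 0.18, limma adjusted p = 1.10e-50). Skin followed with a mean of 11.30, then adipose with 10.89, lung with 10.60, uterus with 10.36 and aorta with 10.03. Among these, the ranges of neighbouring organs in the order overlapped for F3.

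The coagulation and plasmin inhibitors differed in where they were measured beside the liver. Heparin cofactor II (Serpind1), which inhibits thrombin, was liver-only, at 12.95 to 13.52 in the liver (median 13.25) against a next highest mean of 3.96 in the lung, and the liver exceeded the other organs by 10.91 (SE 0.17, limma adjusted p = 1.63e-133). Antithrombin (Serpinc1), the main inhibitor of thrombin and F10, was at 13.80 to 13.99 in the liver (median 13.92) and at 9.38 to 10.51 in the kidney (median 10.12). The kidney exceeded the other non-liver organs by 7.48 (SE 0.35, adjusted p = 9.63e-53, limma) for Serpinc1, with no kidney array overlapping the liver.

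Serpinc1 was uneven within the adrenal and the ovary, whose means stayed below 6.65. In the male adrenal, arrays 1 and 2 read 2.25 and 2.25 while arrays 3, 4 and 5 read 8.66, 8.87 and 9.20. In the female adrenal the 5 arrays read 4.27, 8.24, 9.10, 8.25 and 2.34, and in the ovary 2.19, 9.45, 9.88, 9.06 and 2.22, in the order of their numbers. Serpinc1 was thus high on 6 of 10 adrenal and 3 of 5 ovary arrays and near the bottom of the scale on most others. The 4 kidney tubule markers were at or below a mean of 2.72 on all adrenal arrays and 2.45 on all ovary arrays, and none of them was above 6.65 in either organ.

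Alpha-2-antiplasmin (Serpinf2), which inhibits plasmin, was at 11.11 to 11.83 in the liver with a median of 11.51. Its kidney arrays lay between 8.85 and 9.43 with a median of 9.27, 2.27 below the liver (SE 0.23). For Serpinf2 the epididymis arrays read 9.97, 10.38 and 2.17, so 2 of 3 were above the kidney and 1 was at the bottom of the scale.

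In the kidney, 7 of the 41 member probesets were called higher than the mean of the other non-liver organs (C5, C8g, F5, Fga, Serpinc1, Serpinf2 and Proc), where 8.38% of all probesets were. None of the 9 hepatocyte markers was above 6.65 in the kidney, where the list mean was 2.61 to 3.36 across arrays.

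The C1 complex opens the classical pathway of complement, with C1q as its recognition part and C1r and C1s as its proteases. The 3 chains of C1q are encoded side by side on chromosome 5 and were highest in the spleen. C1qa ranged from 12.59 to 13.29 in the spleen with a median of 13.06 over 8 arrays, and from 8.84 to 10.88 in the liver with a median of 9.58. The ranges did not overlap, and the liver minus the spleen was -3.49 (SE 0.24, limma adjusted p = 1.17e-31). Mesenteric lymph node, mandibular lymph node and adipose followed for C1qa, with means of 11.62, 11.33 and 11.19.

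C1qb was at 12.12 to 13.48 in the spleen (median 12.82) and 7.64 to 10.28 in the liver (median 8.80). C1qc was at 12.18 to 13.32 in the spleen (median 12.85) and 7.71 to 10.16 in the liver (median 9.12). Both followed the order of C1qa in their leading 4 organs. Across 31 organs r between the chains was 0.95 to 0.98, and the r of C1qa, C1qb and C1qc with the mean of 10 macrophage markers was 0.89, 0.86 and 0.91. These organ means share arrays and animals. The macrophage list itself was highest in the spleen, at 10.88 to 11.25 across arrays.

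The proteases C1r and C1s, neighbours on chromosome 4, were highest in the liver but close behind in many organs. C1r was at 11.82 to 12.60 in the liver (median 12.14) and 11.35 to 12.08 in the spleen (median 11.43). The ranges of C1r overlapped, and the difference of 0.64 (SE 0.17, limma adjusted p = 0.00057) was under 2-fold. C1s was at 12.64 to 12.98 in the liver (median 12.86) and 12.04 to 12.55 in the mandibular lymph node (median 12.36), a difference of 0.51 (SE 0.18). C1r was measurable in 29 organs and C1s in 30, and r between them was 0.95 over 31 organs.

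Of the lectin pathway, the mannose-binding lectins Mbl1 and Mbl2, which recognise sugars on microbes, were liver-only. Mbl1 was at 11.05 to 11.72 in the liver with a median of 11.59, and its next highest mean was 4.64 in the kidney. Mbl2 (1387528_at) was at 10.06 to 11.53 in the liver and at most 2.99 in the mean of another organ. The Mbl2 probeset 1379240_at was also highest in the liver, with a mean of 12.73, and r between the pair was 0.996 over 31 organs.

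Masp1, the protease that travels with the lectins, did not give the same leading organ with every probeset. Its probeset 1390585_at was at 8.59 to 9.72 in the liver (median 9.18) and at 7.80 to 8.98 in the ovary (median 8.63), and the ranges overlapped. Its probeset 1371116_at was measurable in the liver alone, at 6.97 to 7.88. Its probeset 1389543_at was at 9.98 to 10.69 in the gastrocnemius muscle (median 10.38), with means of 9.65 in soleus and 9.62 in heart and 5.33 in the liver. Between probesets of Masp1 r was 0.12 to 0.58 over 31 organs, and which transcripts each reports was not examined.

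C3, the component on which all complement pathways meet, was at 13.77 to 14.66 in the liver with a median of 14.27. The uterus came next, where the 5 arrays read 6.60, 12.50, 11.78, 11.78 and 11.60, with female 1 far below the others, and it exceeded the other non-liver organs by 5.93 (SE 0.44, limma adjusted p = 1.41e-28). The other 4 uterus arrays of C3 lay within 1 log2 unit of each other and above every bone marrow array. In the bone marrow C3 was at 10.24 to 10.93 and in the lung at 9.99 to 10.74, both called higher than the other non-liver organs.

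Properdin (Cfp), which stabilises the C3 convertase, was highest in the spleen by both probesets. With 1379019_at the spleen was at 8.59 to 9.93 (median 9.33) and the liver at 5.11 to 7.06. With 1393411_at the spleen was at 10.63 to 12 (median 11.68), the bone marrow at 8.23 to 9.71 (median 9.04) and the liver at 3.54 to 8.18. Neither spleen range of Cfp overlapped that of the liver. By 1393411_at the liver was called higher than the mean of all other organs at 1.73 (SE 0.17), while the liver minus the spleen was -5.23.

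The convertase components C2 and Cfb share 4 probesets and stayed outside the counts. Of these, 1389470_at averaged 12.86 in the liver (12.61 to 13.11) and 11.35 in the lung, and 1383391_a_at averaged 11.09 in the adrenal and 10.42 in the liver. Which gene of C2 and Cfb gave these signals cannot be told apart.

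Cfi, the protease that inactivates C3b, was at 13.55 to 13.80 in the liver with a median of 13.71. In the uterus it was at 7.86 to 10.95 (median 9.76), and in the duodenum at 8.77 to 10.25 (median 9.76). The uterus exceeded the other non-liver organs for Cfi by 6.11 (SE 0.32, limma adjusted p = 4.12e-45). Jejunum, ileum, soleus and lung were measurable as well for Cfi, with means of 8.61, 8.07, 7.53 and 6.58, the lung in females alone.

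The terminal components C5 to C9 build the membrane pore. C8a, C8b and C9 were liver-only. C8b was at 12.05 to 12.73 in the liver, with a next highest mean of 2.73 in adipose. That mean rests on the arrays with hepatocyte markers, male 5 at 5.93 and female 2 at 4.02, since the other 8 adipose arrays of C8b read 2.14 to 2.22. C8a was at 12.49 to 13.33 in the liver and 4.33 in the pancreas mean. C9, which polymerises in the pore, was at 13.08 to 13.44 in the liver, and its adipose mean was 3.24, with male 5 at 7.50, female 2 at 5.57 and the other 8 arrays at 2.36 to 2.51.

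C8g, the small subunit of C8 and a lipocalin, was measurable in 9 organs, unlike C8a and C8b. It was at 12.98 to 13.55 in the liver (median 13.39) and 7.93 to 9.17 in the jejunum (median 8.38), and all 9 jejunum arrays were above 6.65. The jejunum exceeded the other non-liver organs by 2.82 (SE 0.15, limma adjusted p = 2.24e-44) for C8g, and duodenum, epididymis and caecum followed with means of 7.19, 7.18 and 6.89.

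C5, the source of the anaphylatoxin C5a, was at 11.25 to 11.81 in the liver (median 11.67) and 7.34 to 8.65 in the kidney (median 8.12). The kidney exceeded the other non-liver organs by 4.94 (SE 0.15, limma adjusted p = 2.97e-82) for C5, and every kidney array was above 6.65 and below every liver array.

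C6, the component that joins C5b, was high in both the liver and adipose. It was at 10.59 to 11.61 in the liver (median 11.05) and at 9.26 to 11.98 in adipose (median 11.14), and the ranges overlapped. The difference of 0.22 between liver and adipose (SE 0.37, limma adjusted p = 0.64) did not pass the test. For C6 the lowest adipose arrays, at 10.07 and 9.26, were the pair with hepatocyte markers, and adipose exceeded the other non-liver organs by 7.79 with and 8.12 without the arrays that carried them. The other 8 adipose arrays had a C6 median of 11.30, and without the marked arrays the adipose mean was above that of the liver.

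Outside the liver, 25 of the 41 member probesets were higher in at least 1 organ than in the mean of the other 29 non-liver organs, beside 60.9% of all probesets, so the share of members was near that of the array. By organ the counts differed. Adipose had 10 member probesets against a background of 7.58%, spleen 10 against 8.49%, mesenteric lymph node 11 against 7.84%, mandibular lymph node 9 against 8.44%, bone marrow 9 against 8.98% and skin 9 against 7.51%. Epididymis had 6 (8.27%), uterus 6 (8.02%), lung 5 (8.73%) and thymus 5 (12.2%). There were 4 in the ovary (6.80%), pancreas (3.89%) and thyroid (7.02%), 3 in the bladder (7.75%), jejunum (7.92%) and soleus (8.76%), and 2 in the duodenum (7.57%), ileum (8.06%) and gastrocnemius (8.41%). The adrenal (7.15%), aorta (6.93%), caecum (7.67%), heart (8.79%), prostate (8.82%) and stomach (5.83%) had 1 each. By limma 0 were called in the brain (12%), colon (7.22%), pituitary (9.11%) and testes (12.5%), where 3, 0, 3 and 5 of the 41 were higher at an unadjusted p under 0.05, at any level and fold.

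**Figure D3:**
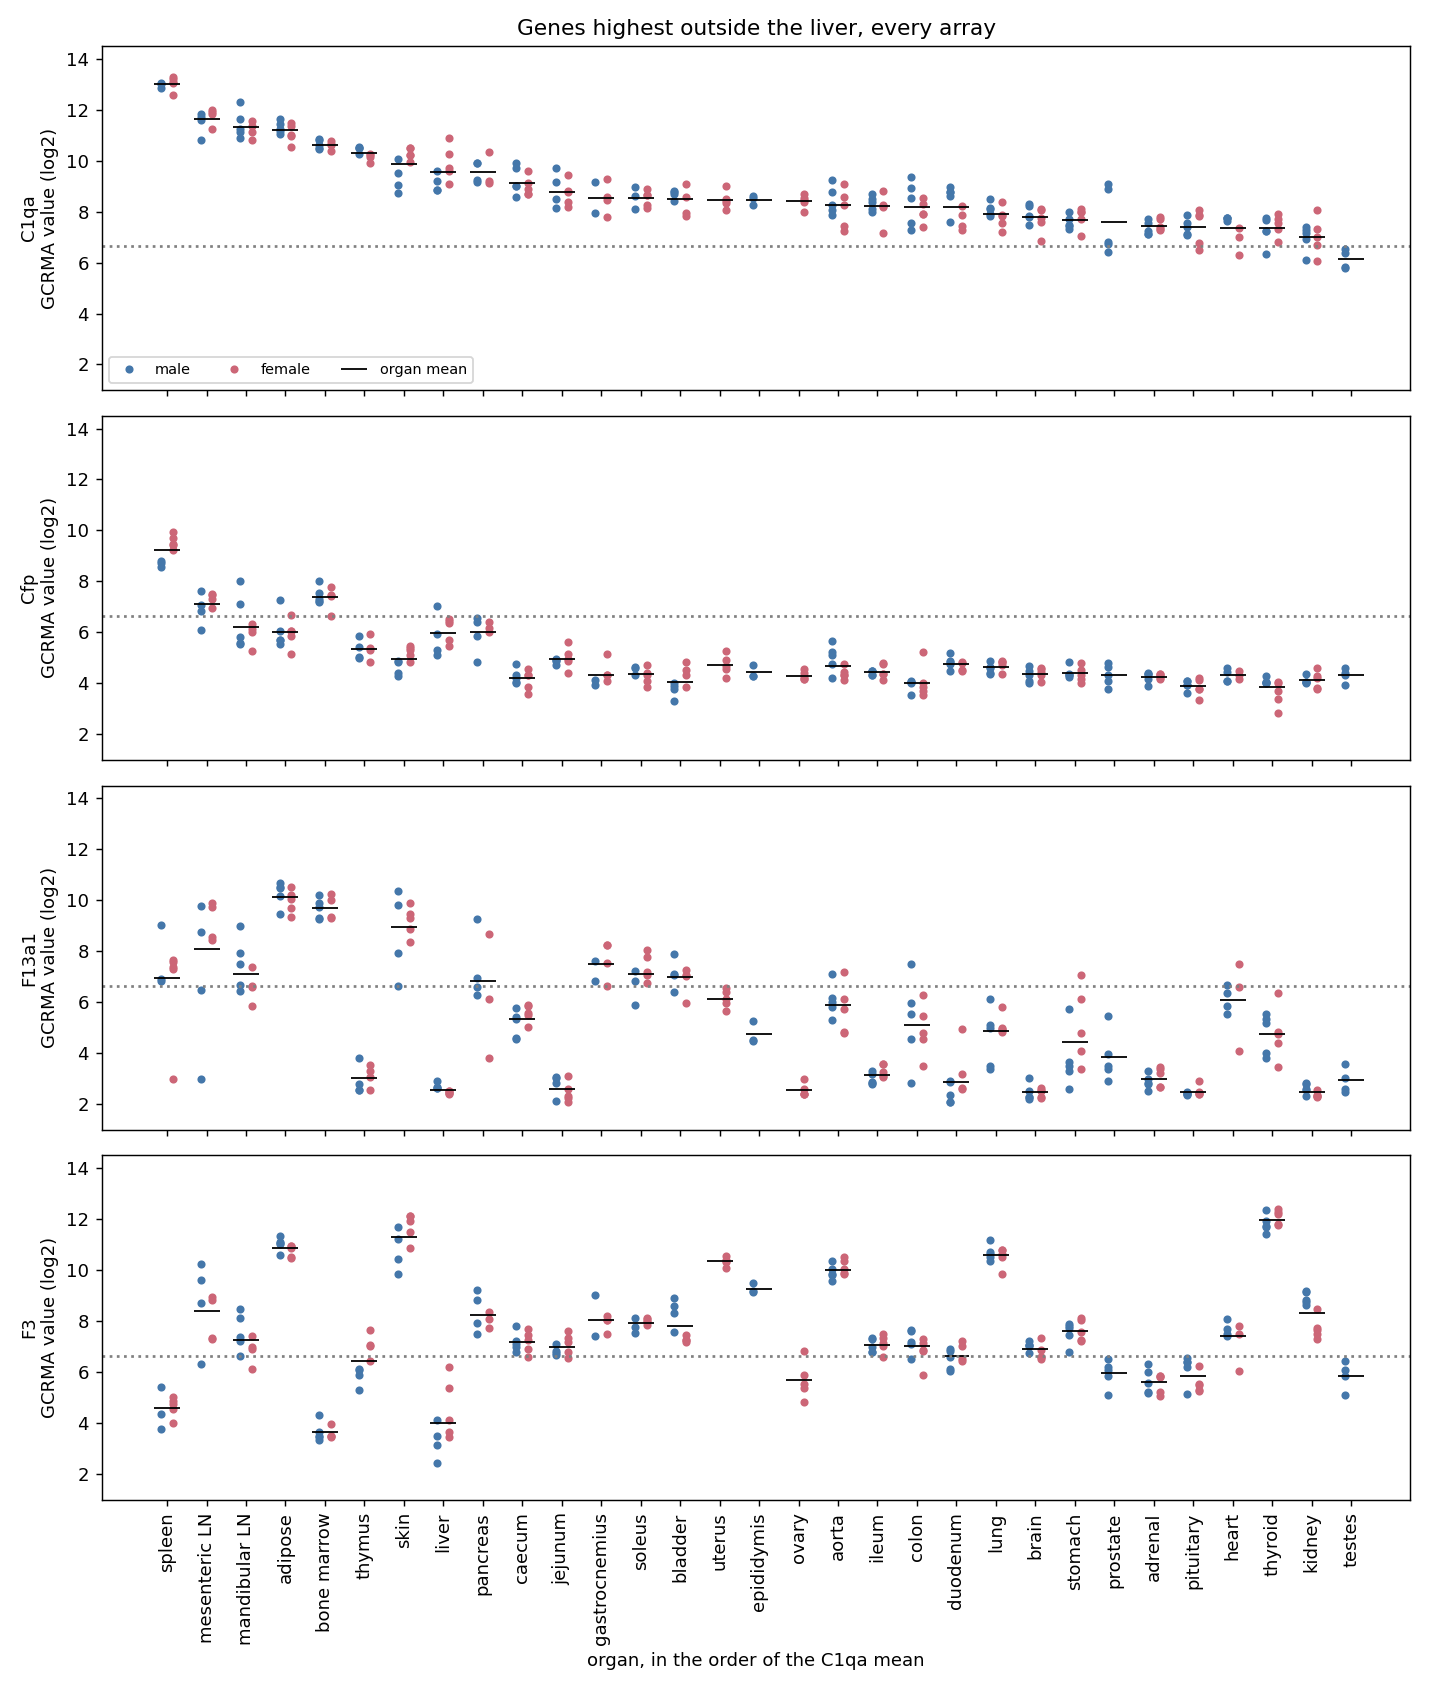
Log2 signal of C1qa, Cfp (1379019_at), F13a1 (1374779_at) and F3 on every array (points, coloured by sex) by organ (horizontal axis, in the order of C1qa), with the organ mean as a dash and a dotted line at 6.65. C1qa and Cfp peak in the spleen, F13a1 in adipose and F3 in the thyroid.

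Spleen, adipose and the lymph nodes had many called genes in common: C1qa, C1qb, C1qc, C1r, C1s and F13a1 were called in each of them. The nodes also carried the adipocyte markers given above, and the part of these in the shared calls was not tested. In the lung the called members were C3, Cfi, F3, Fgg and Pros1, and in the uterus C1r, C1s, C3, Cfi, F3 and Pros1. In the thymus they were C1qa, C1qb, C1qc, C3 and F2.

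On the 2 adipose arrays with hepatocyte markers, the liver-only genes moved with those markers. On adipose male 5, 21 of the 33 genes exceeded the 8 adipose arrays without hepatocyte markers by over 1 log2 unit, all 11 liver-only genes among them, and these were 4.61 to 7.50 below their liver means (median 6.02). On adipose female 2, 17 genes did, 9 of the liver-only genes among them, at 6.92 to 8.95 below the liver (median 8.34). Fgb and Plg were above 6.65 on both arrays, and C9, F9 and Serpind1 on male 5 alone. On lung female 3, Fga, Fgb and Serpinc1 exceeded the other lung arrays by over 1, with 1 of the 11 liver-only genes among them, and on jejunum male 5, C3 and Fgg exceeded the other jejunum arrays, with 0 of the 11. Alb, the albumin gene and 1 of the 9 markers, read 14.92 on male 5 and 14.83 on female 2.

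**Figure D4:**
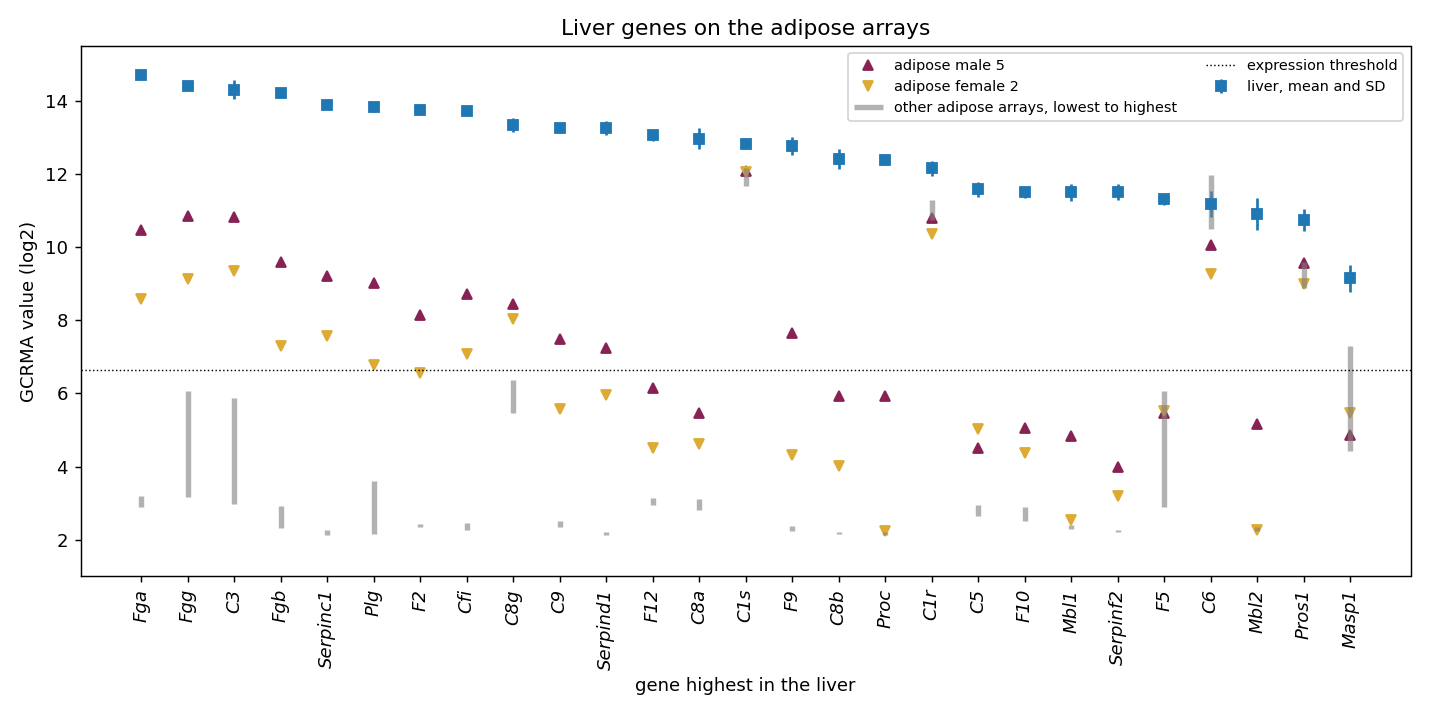
Log2 signal (vertical axis) of the 27 genes highest in the liver (horizontal axis): liver mean and SD as squares, adipose male 5 and female 2 as triangles, and the range of the other 8 adipose arrays as grey bars. For 21 genes male 5 lies over 1 log2 unit above the grey bar.

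Male and female arrays were compared in each of 26 somatic tissues (limma per tissue). A probeset was called sexually dimorphically expressed (SDE) when its mean passed 6.65 in at least 1 sex, the sexes differed at least 2-fold and the adjusted p was under 0.05. Of the 41 member probesets, 6 were SDE in at least 1 tissue, each in 1 tissue, where 7.00% of all probesets were. In the liver 0 of 41 were, against 0.825% of all probesets, and the methods' t-test also called 0. At an unadjusted p under 0.05, 12 of 41 passed in the liver, beside 13.1% of all probesets. A single fit over all groups called 2 in the liver, C1qc at -1.22 and Cfp at -2.02 (male minus female), which the fit of the liver alone put at adjusted p = 0.203 and 0.265.

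The kidney had 3 of the 6 calls, with 1.85% of all probesets SDE there. Proc was higher in males: the 5 male kidneys read 8.11, 8.08, 7.87, 8.24 and 8.03 and the 5 female kidneys 5.67, 6.50, 6.29, 6.14 and 6.17. Every male array was above 6.65 and every female array below it. The difference was 1.91 (SE 0.14, limma adjusted p = 0.000118).

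F3 was also higher in the male kidney, at 8.85, 9.18, 8.62, 9.16 and 8.74 against 7.28, 8.48, 7.65, 7.73 and 7.51 in the female. The arrays did not overlap, with female 2 closest to the males, and the difference was 1.18 (SE 0.22, limma adjusted p = 0.010). Fga (1370992_a_at) ran the other way, at 6.33, 6.07, 6.14, 5.87 and 6.15 in the male kidney and 7.81, 7.40, 7.72, 7.22 and 7.39 in the female. All male arrays of Fga were below 6.65 and all female arrays above it, a difference of -1.40 (SE 0.13, limma adjusted p = 0.000369).

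Further members differed in the kidney without meeting all limits. Mbl1 averaged 6.53 in male and 2.75 in female kidneys (difference 3.78, limma adjusted p = 4.33e-05), and F2 averaged 5.94 and 3.13 (2.81, adjusted p = 0.00376), so both stayed under 6.65. Fgb was higher in females, at 5.22 against 2.61 (-2.61, limma adjusted p = 0.00036), as was Cfi at 4.13 against 2.68 (-1.45, limma adjusted p = 0.00337), again under 6.65. Pros1 was 0.96 higher in males (limma adjusted p = 0.00928), just under 2-fold. The Fga probeset 1371258_at was lower in males like 1370992_a_at, at -1.94 (limma adjusted p = 0.0323), and Serpinf2 was 0.31 higher in males with overlapping arrays. In all, 10 of 41 member probesets passed the adjusted p in the kidney at any level and fold, beside 11.6% of all probesets.

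**Figure D5:**
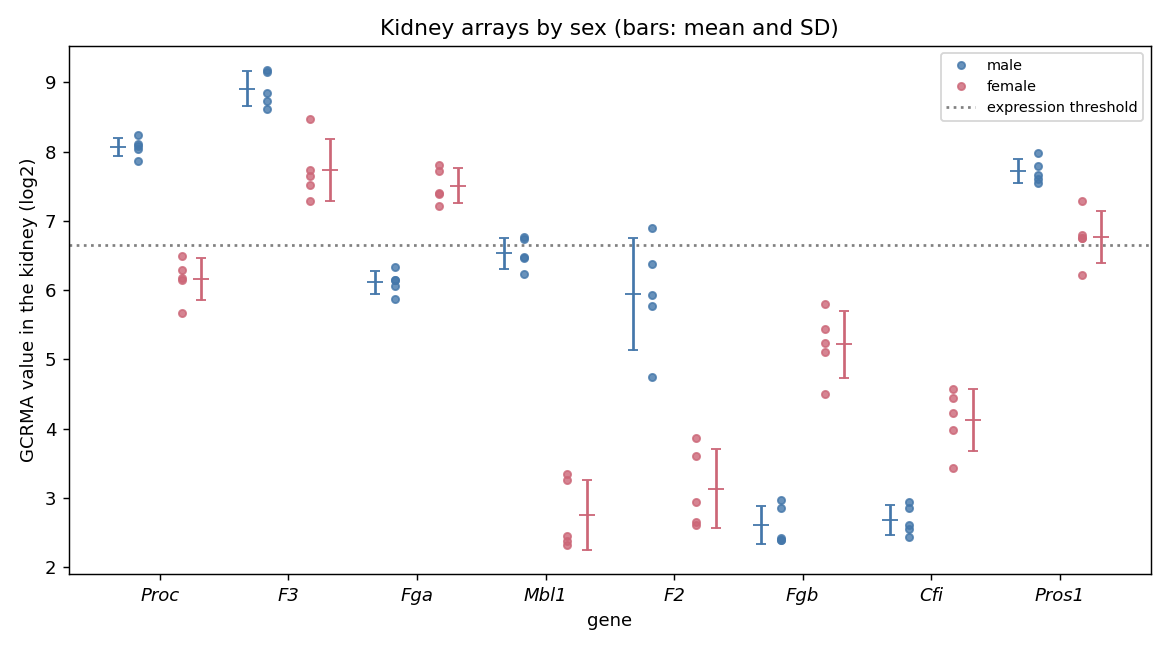
Log2 signal of each kidney array, male and female side by side, for 8 members (horizontal axis), with the mean and SD beside the points and a dotted line at 6.65. Proc, F3, Mbl1, F2 and Pros1 are higher in males and Fga, Fgb and Cfi in females, without overlap.

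Beside these values, the hepatocyte list in the kidney was at 2.64 to 3.36 in males and 2.61 to 2.85 in females, and the tubule list at 12.84 to 13.11 and 12.72 to 13.08. The macrophage list was at 5.98 to 6.93 in males and 6.17 to 6.66 in females, and the endothelial list at 7.76 to 8.33 and 8.21 to 8.72. Each of these ranges overlapped between the sexes. Single marker genes that were SDE in the kidney were Cidec of the adipocyte list, at 3.18, and Slc4a1 of the erythroid list, at -1.26, and their part in the members' differences was not tested.

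In the adrenal, Pros1 was the 1 SDE member, with 0.886% of all probesets SDE. The male arrays read 7.77, 7.62, 8.06, 8.08 and 7.72 and the female arrays 8.90, 8.99, 8.54, 9.02 and 8.87. All female arrays of Pros1 were above all male arrays, and the difference was -1.01 (SE 0.12, limma adjusted p = 0.00298). Its direction was opposite to that in kidney, to the liver, where males were 0.56 higher (adjusted p = 0.00727, limma), and to adipose, where they were 0.50 higher (adjusted p = 0.0179). The sex difference of Pros1 in the adrenal differed from that in 17 of 25 other tissues by an interaction test. The call was lost on leaving out male 1, 2 or 5 or female 2 or 4, where the difference became -0.96 to -0.99, just under 2-fold, at an adjusted p of up to 0.0102. Among the marker genes Mpeg1 of the macrophage list (2.15) and Hpx of the hepatocyte list (3.23) were SDE in the adrenal, both higher in males. Of the further pathway genes, A2m (-6.64) and Cfd (-3.05) were SDE there and higher in females, like Pros1. The part of these genes in the Pros1 difference was not tested.

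In the duodenum, C8g was SDE where 2.78% of all probesets were. The male arrays read 7.54, 8.41, 8.23, 8.24 and 7.11 and the female arrays 6.15, 6.36, 6.88 and 5.80, without overlap. The difference was 1.61 (SE 0.32, limma adjusted p = 0.0220), and in the jejunum it was 0.87 in the same direction (limma adjusted p = 0.0323). The enterocyte list was also apart, at 12.58 to 13.35 in the male and 11.30 to 12.28 in the female duodenum, and its part in the C8g difference was not tested. The call for C8g was lost on leaving out male 2, 3 or 4 or female 2 or 5, with an adjusted p of 0.0519 to 0.0604 (limma).

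In the spleen, where 0.0161% of all probesets were SDE, Cfp was called by 1393411_at. The 3 male arrays read 10.63, 10.66 and 10.84 and the 5 female arrays 11.78, 11.58, 11.85, 12 and 11.81. The groups did not overlap for Cfp, and the difference was -1.09 (SE 0.10, limma adjusted p = 0.0455). The probeset 1379019_at of Cfp differed by -0.85 with an adjusted p of 0.805 (limma), and of 8 arrays left out in turn the call held for female 2 alone, the adjusted p being 0.0872 to 0.203 for the others. The macrophage list was at 10.88 to 11.06 in male and 11.03 to 11.25 in female spleens.

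The genes around the members in the same pathways were read from 2 further lists. Of 26 other coagulation and fibrinolysis genes (36 probesets), 10 probesets were higher in the liver, 10 lower and 16 neither, with a median difference of -0.10. Those higher by the most in the fit were Serpina1 (11.15), Hrg (10.49) and Cpb2 (10.46), whose means over the other organs were 3.31, 3.80 and 2.04, a protease inhibitor, a plasma glycoprotein and a carboxypeptidase that protects fibrin. Their order is not read, since means near the bottom of the scale enter it. Lower in the liver were, among others, Anxa2 (-4.17), a surface receptor that helps plasminogen activation, the thrombin receptor F2r (-2.93) and Anxa5 (-2.32), which binds exposed phospholipid.

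Of 17 complement regulators and receptors (22 probesets), 8 probesets were higher in the liver, 5 lower and 9 neither, with a median of 0.27. C4bpa (10.71), C4bpb (9.57) and Vtn (9.03), fluid-phase inhibitors of complement, were among those higher. Among those lower were Cd55 (-4.82), the membrane-bound decay-accelerating factor, the collectin Colec12 (-3.87) and Cfd (-2.23), the adipose-enriched protease factor D. The median over the members was 8.57.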

How the data were processed

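Total RNA of each organ was hybridised to Affymetrix RAE230_2 arrays, 1 array per organ and animal. The deposited values are log2 expression values that the authors made with GCRMA (the version is not given in the sources used here); they ranged from 1.02 to 15.83, and array medians from 3.86 to 4.45. Nothing was renormalized. GCRMA subtracts a background estimated from probe sequence, so values near the lowest have little order.

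Probesets were named from the platform annotation: 20826 had 1 gene symbol, 436 several and 9780 none. Organs were compared in 1 limma fit (version 3.58.1, R 4.3.3) over all 57 groups, with both sexes of an organ weighted equally, and sexes in a fit per tissue. P-values were adjusted by Benjamini-Hochberg over all 31042 probesets and called at 0.05, 2-fold and a mean above 6.65 in at least 1 group compared. Numbers mark the same animal across organs in the study's sample list, except in ovary and testes, so the animal was also tried as a random block.

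The member genes, marker and pathway lists were chosen with earlier results of these data known. Values are given by array for SDE members, for the 3 largest liver differences of each class and for members called in another organ. The scripts were tested on simulated data. Other alternatives were quantile normalization, a trended robust fit, single-sex fits, other limits, the methods' t-test and leaving out arrays. The rule that sets arrays with hepatocyte or lymphocyte markers apart, a list mean over 1.5 above the organ median, was chosen after seeing the data.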

Additional observations from a re-analysis of the deposited data

Results flagged for a closer look

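In 4 of 61 groups of 4 to 5 arrays of 1 organ and sex examined for the members, 1 array stood far from the rest by Dixon's criterion. By chance alone about 1 in 20 groups reaches it. C3 on uterus female 1 read 6.60, while the other 4 uterus arrays lay between 11.60 and 12.50. C5 on kidney female 2 read 8.65, against 8.01 to 8.19 on the other female kidneys. F2 on thymus female 3 read 7.00, against 7.74 to 7.82. Fgb on liver male 4 read 13.99, against 14.28 to 14.34 on the other male livers.

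The sex difference of each SDE member was compared with its difference in the 25 other somatic tissues by interaction terms of a limma fit over all groups. The difference of Proc in the kidney departed from that in 23 tissues, all but adipose and stomach. That of C8g in the duodenum departed from 21, and the jejunum was among the 4 it did not separate from. That of Pros1 in the adrenal departed from 17. Proc was measurable in the liver and kidney alone, and C8g in 9 organs. Where a signal lies near the bottom of the scale, little sex difference can appear. The counts for Proc and C8g therefore cannot show a sex effect particular to 1 tissue. In adipose, Proc read 5.93 on male 5, which carried hepatocyte markers, against 2.13 to 2.22 on the 8 arrays without them. Fewer tissues separated for F3 in the kidney (4), Fga in the kidney (2) and Cfp in the spleen (1), and for these the difference did not separate from that in most other tissues.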

How the results depend on the processing

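The counts of member probesets higher in the liver (31), lower (3) and above every other organ (25) stayed within 1.5 times under every alternative run, and no called difference changed sign. The calls in organs other than the liver fell from 120 to 74 at a 4-fold limit. The SDE calls rose from 6 to 11 with 1 fit over all groups, where the liver had 2 in place of 0, and to 12 with no expression threshold, where the kidney had 8 in place of 3. Leaving out 1 liver array at a time gave 31 to 31 higher, 3 to 3 lower and 25 to 26 above every organ. The groups stayed at 11, 16 and 6 genes each time. The 120 calls over 25 probesets in other organs also stayed, but no liver array enters those differences, so this could not test them. Arrays of the other organs were not left out singly for these organ counts. Leaving out 1 array of the adrenal, duodenum, kidney, liver or spleen gave 5 to 7 SDE calls. Of these, 3 to 4 were in the kidney and 0 in the liver. With the animal as a random block (consensus correlation 0.0105) the organ counts were again 31, 3, 25 and 120, and 68 of 150 interaction tests passed, as without it. The replicate number as a block within a tissue left 5 SDE calls, without Cfp in the spleen (adjusted p = 0.917, limma). Male and female arrays of a number are different animals, so that block pairs nothing known. Of 447 recomputed values for single genes 433 kept their call, 13 lost it and 1 gained it. Among those lost, Cfp in the spleen was at an adjusted p of 0.165 by the methods' t-test, 0.0520 with a trended robust fit and 0.213 with 1 fit over all groups. The liver minus adipose difference of C6 changed sign in the organ means without the arrays that carry hepatocyte markers, which made 7 genes highest outside the liver, but it was not called in either case. With the highest probeset taken in each organ, Masp1 was highest outside the liver (11, 15 and 7 genes), and in female arrays alone Proc was liver-only (12, 15 and 6). Signals near the background limit what can be said of low levels, and groups of 2 to 5 arrays limit the SDE tests.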

Other observations

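Within the adrenal and the ovary, high and low Serpinc1 arrays fell on the same numbers in females: females 2, 3 and 4 read 8.24, 9.10 and 8.25 in the adrenal and 9.45, 9.88 and 9.06 in the ovary, while females 1 and 5 read 4.27 and 2.34 in the adrenal and 2.19 and 2.22 in the ovary. Whether equal numbers mark the same animal in these organs is not settled by the sources used here. Fgg showed the same kind of split in the pancreas, where male 1 and male 2 read 6.85 and 7.12 and the other 5 arrays at most 2.63.

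Beyond the members, several genes of the same pathways were SDE. In the adrenal, with 0.886% of all probesets SDE, A2m differed by -6.64 and Cfd by -3.05 (male minus female). In the kidney (1.85%) Serpina10, the cofactor-dependent inhibitor of F10, differed by -3.48, Vwf by -1.31 and Cd55 by -2.02 and -1.08 with its 2 probesets. In the duodenum (2.78%) Cd55 differed by 1.92, opposite in sign to the kidney, F2rl1 by 2.23, Plau by 1.31 and F8 by -1.03. In the pituitary (1.17%) the protein C receptor gene Procr differed by 1.65 and Colec12 by 1.01, and in the skin (0.0677%) Cfd differed by -1.65. Whether these differences vary between tissues was not tested.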
